A study of Mus musculus with 5 samples.

Results

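DNA replication genes encode the proteins that copy the genome in S phase, and 53 of them were followed in 5 bulk RNA-seq libraries. The genes were listed by name, with earlier results of these data known. All 53 were among the 30046 features counted. They fall into 5 steps, with 15 genes of origin licensing, 8 of origin firing, 20 of the polymerases and their clamp, loader and single-strand binding proteins, 5 of nucleotide supply and 5 linked to chromatin assembly, the fork checkpoint and repair. The cells were Cxcl12-GFPhigh tdTomato+ cells sorted from femurs at P21, after a single tamoxifen dose to the mother at E12.5. Dlx5CE-E12.5 cells (3 libraries) came from Cxcl12(GFP/+); Dlx5(CreER/+); R26R(tdTomato/+) mice and descend from cells in which the Dlx5 driver was active at the pulse, and Fgfr3CE-E12.5 cells (2 libraries) came from Cxcl12(GFP/+); Fgfr3-iCreER; R26R(tdTomato/+) mice, with the Fgfr3 driver. All mice carried GFP at 1 Cxcl12 allele and tdTomato at 1 R26R allele, and Cxcl12-GFPhigh cells of the marrow at this age are mostly CXCL12-abundant reticular (CAR) stromal cells. Littermates were pooled by genotype. The sources name no blood cell marker for the RNA-seq sort, whereas the paper's flow cytometry at P21 was of cells negative for CD45, Ter119 and CD31.

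Before S phase, the origin recognition complex (ORC), CDC6 and CDT1 load the MCM helicase onto origins, a step called licensing. The kinase CDC7 with its activator DBF4, together with CDC45 and the GINS complex, then fires the origins, and the polymerases copy both strands behind the unwinding helicase. Many of these genes are switched on by E2F transcription factors as a cell leaves quiescence. Their transcripts are therefore used as a sign of cycling cells, although ORC subunits are also made in cells that do not divide. Most CAR cells of the marrow are quiescent, whereas developing blood cells around them divide rapidly.

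RefSeq promoters, from 250 bases before to 50 after the transcription start on GRCm38.p6, were found for 45 of the 53 genes. An E2F site was searched as TTTCCCGC, TTTCGCGC, TTTGCCGC or TTTGGCGC on either strand, with overlapping matches each counted. Such a match was present in the promoters of 17 of the 45 genes (37.8%), against 2.6% of all genes with a promoter. The 17 genes included Mcm3, Mcm5, Mcm6 and Mcm7 of the helicase, Cdc6, Cdt1, Orc1 and Orc3 of licensing, and Pold1, Pold3, Pole2 and Lig1 of the replication fork. The promoters of Mcm5 and Mcm6 are shown because these genes have a single RefSeq start and the matches lie close together, with the matches in capitals, written 5′ to 3′ on the strand of the gene.
Mcm5, chr8:75109259-75109558, plus strand: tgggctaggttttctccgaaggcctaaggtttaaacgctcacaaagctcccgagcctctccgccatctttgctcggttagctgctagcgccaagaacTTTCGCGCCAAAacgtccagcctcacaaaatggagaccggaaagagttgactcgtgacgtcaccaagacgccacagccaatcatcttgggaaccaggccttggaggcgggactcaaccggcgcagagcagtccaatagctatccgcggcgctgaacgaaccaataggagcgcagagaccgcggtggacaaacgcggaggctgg
Mcm6, chr1:128359656-128359955, minus strand: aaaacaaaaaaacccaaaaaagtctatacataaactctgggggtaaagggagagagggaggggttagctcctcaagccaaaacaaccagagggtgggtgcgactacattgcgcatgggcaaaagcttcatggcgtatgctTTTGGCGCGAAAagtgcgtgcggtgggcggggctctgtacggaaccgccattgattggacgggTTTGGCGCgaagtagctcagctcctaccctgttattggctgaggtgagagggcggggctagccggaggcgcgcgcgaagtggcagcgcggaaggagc
In Mcm5, TTTCGCGC on the gene's strand began 153 bases before the start and overlapped TTTGGCGC on the other strand at 149. In Mcm6, TTTGGCGC at 110 overlapped TTTCGCGC on the other strand at 106, and a further TTTGGCGC lay 47 bases before the start. By promoter, 30.9% of those of the replication genes held a match against 2.3% of all promoters, while TTTGAA, the core of the cell cycle homology region of mitotic genes, was found in 14.5% against 17.9%. CCAAT, the NF-Y site, was found in 52.7% against 37.4%. A match is a string of letters in these windows and was not tested for binding.

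Total counts ranged from 22035650 to 32563758 in the Dlx5CE-E12.5 libraries and from 56355203 to 58166285 in the Fgfr3CE-E12.5 libraries, and 3 counts, taken as the smallest detectable amount, corresponded to 0.0516 to 0.136 CPM. According to the methods, the Dlx5CE-E12.5 libraries were read as 150-base pairs and the Fgfr3CE-E12.5 libraries as 50-base single reads on another sequencer, whereas the labels name the same sequencer throughout. Read length and sequencer therefore cannot be told apart from lineage. Levels below are normalized CPM, counts scaled to the total of the tested genes with TMM factors, listed for Dlx5CE-E12.5 replicates 1, 2 and 3 and then Fgfr3CE-E12.5 replicates 2 and 3, the numbers in the labels. A gene was called at an adjusted p under 0.05 (edgeR's quasi-likelihood test, Benjamini-Hochberg over all genes tested) and an absolute log2 fold change above 1, and fold changes are Fgfr3CE-E12.5 over Dlx5CE-E12.5. Cells of 4 mice were combined for each lineage, and whether any mouse gave cells to more than 1 library is not given in the sources used here. The p-values measure only the spread between these libraries, which may be partly technical.

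Replication genes were higher in Fgfr3CE-E12.5 cells as a group. From the same libraries, the paper had already reported many cell division terms enriched among genes higher in these cells. The choice of list is therefore not independent of these data. Of the 50 that passed the filter on low counts, 27 were called higher in Fgfr3CE-E12.5 cells, against 16.4% of the 10088 genes tested, and 0 were called higher in Dlx5CE-E12.5 cells, against 13.1%. The filter, a CPM of 10 before TMM scaling in 2 or more libraries, can be met by the 2 Fgfr3CE-E12.5 libraries alone. Dbf4, Cdc45, Pole2, Gins3 and Pole met it in no Dlx5CE-E12.5 library. Cdc7, Gmnn, Mcm10 and Chaf1a also needed the Fgfr3CE-E12.5 libraries to meet it. Clspn met it only in Dlx5CE-E12.5 replicate 1 and Fgfr3CE-E12.5 replicate 3. All of these are among the 50, and the shares over all genes carry the same filter. At an adjusted p under 0.05 with no fold threshold, 37 were higher in Fgfr3CE-E12.5 cells (background 25.0%) and 0 in Dlx5CE-E12.5 cells. The median log2 fold change of the 50 was 1.07, or 2.1-fold, and that of all genes tested was 0.01. Both Fgfr3CE-E12.5 libraries lay above all 3 Dlx5CE-E12.5 libraries for 42 of the 50, against 34.8% of all genes, and the other 8 overlapped. Summed over the 53 genes, levels were 2200, 1622 and 1744 CPM in Dlx5CE-E12.5 cells and 3495 and 4370 CPM in Fgfr3CE-E12.5 cells. Without Fgfr3CE-E12.5 replicate 3, the library with the larger sum, 14 genes were called and the median was 0.82.

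**Figure D1:**
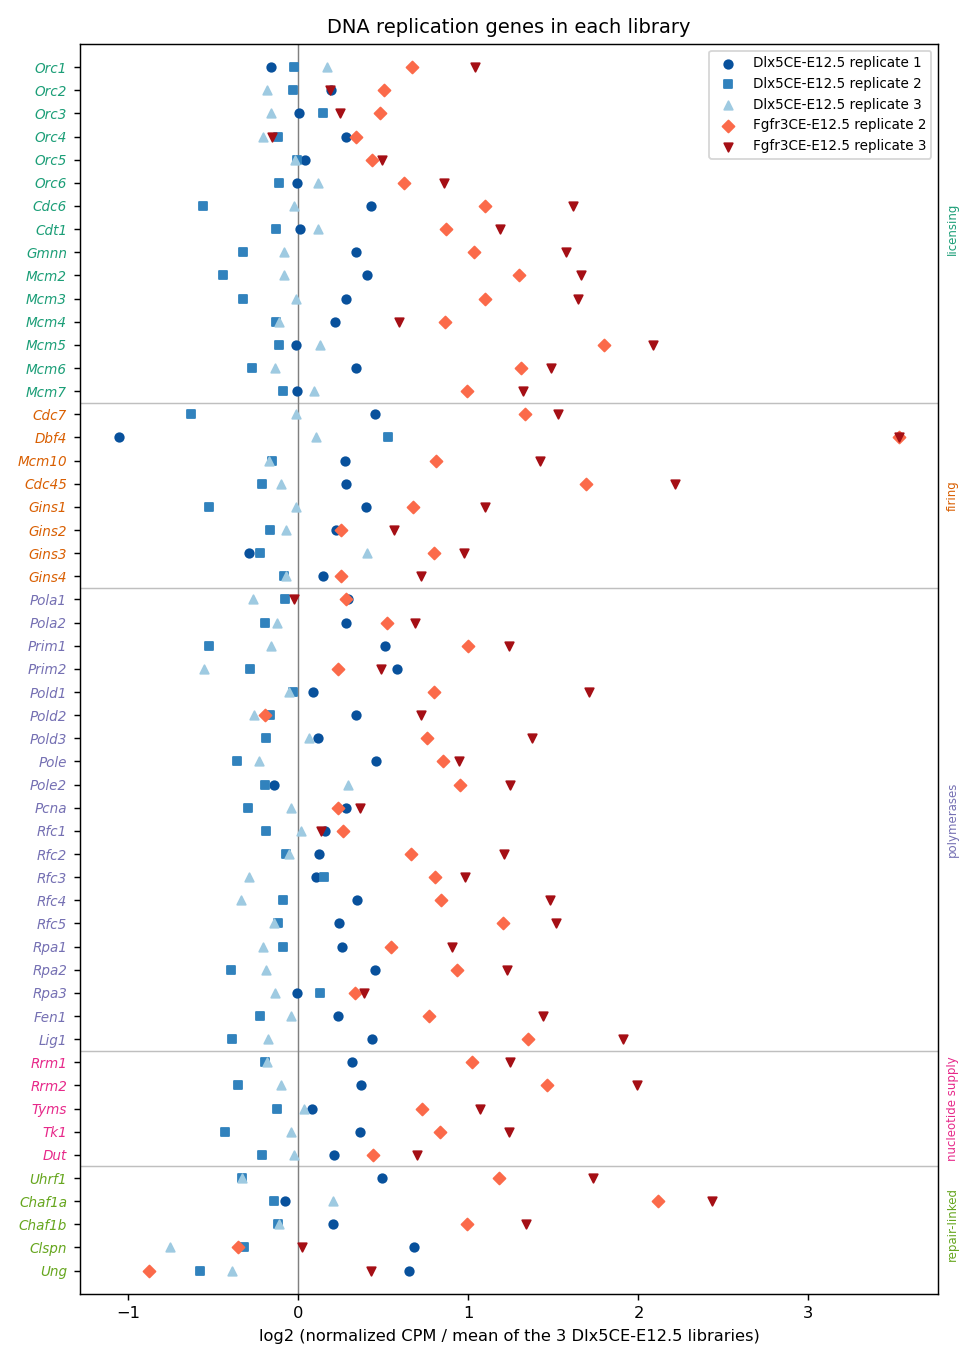
Level of each of the 53 genes in each library, as log2 of normalized CPM over the mean of the 3 Dlx5CE-E12.5 libraries (horizontal axis), with genes grouped by step (vertical axis, name colours) and a symbol per library. The red symbols lie to the right of all blue ones for 42 of the 50 genes that passed the filter, and Dbf4 lies farthest out.

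The same libraries also differed in markers of other cells, and the part of these cells in the result was not tested. All 13 pan-leukocyte markers were called higher in Fgfr3CE-E12.5 cells (all genes 16.4%), with sums of 573, 507 and 454 CPM against 1482 and 3164 CPM. For markers of the neutrophil lineage, 10 of 11 were called higher, and the sums were 2783, 3255 and 2602 CPM against 7247 and 17844 CPM. Blood progenitor markers summed to 36.9, 17.5 and 15.7 CPM against 154.8 and 165.1 CPM, and all 3 tested of 6 (Kit, Gata2 and Myb) were called higher. Early B lineage markers summed to 249, 109 and 99.2 CPM against 261 and 468 CPM, and 3 of the 6 tested of 9 were called higher. Of the markers tested in these 4 lists, Vav1, Cebpe, Kit, Gata2, Igll1 and Dntt met the filter on low counts in no Dlx5CE-E12.5 library. Ms4a3, Myb and Vpreb3 also needed the Fgfr3CE-E12.5 libraries to meet it. Pax5 (-0.93) and Rag1 (-0.43), under the filter, had negative log2 fold changes and were not called. Erythroid markers summed to 38312, 18795 and 24737 CPM against 14702 and 21896 CPM, and these sums are mostly globin. Of the 11, 8 had a positive log2 fold change, up to 0.80 for Gata1 (adjusted p = 0.0365), 0 were called higher and 2 were called lower, the globins Hba-a1 (-1.18) and Hbb-bt (-1.27). Stromal markers of CAR cells, including Cxcl12 and Lepr, summed to 35655, 37721 and 36610 CPM against 15132 and 9900 CPM. That sum is mostly Cxcl12. Of the 10 markers, 6 were called lower in Fgfr3CE-E12.5 cells (all genes 13.1%) and 1 higher (all genes 16.4%). The 1 called higher was Foxc1, at 36.7, 59.2 and 54.5 CPM against 331.5 and 377.6 CPM. Lepr (-0.94, adjusted p = 0.0383) passed the p-value threshold below the fold threshold and was not called. Pdgfrb (-0.23) and Cdh11 (-0.28) were not called and their groups overlapped. Osteoblast markers summed to 5546, 4249 and 3932 CPM against 7610 and 10220 CPM, and chondrocyte markers to 140, 131 and 135 CPM against 3427 and 451 CPM. The chondrocyte sum was almost all Sox9 in Dlx5CE-E12.5 cells, at 130.6, 122.7 and 128.8 CPM against 101.9 and 56.5 CPM, and mostly Col2a1 in Fgfr3CE-E12.5 cells, at 7.38, 3.32 and 0.795 CPM against 2734 and 360.7 CPM, while Col9a1 was at 0 in every Dlx5CE-E12.5 library. Osteoclast markers summed to 198.5 to 204.9 CPM against 260.5 and 260.6 CPM. That sum is mostly Ctsk, at 185.2, 188.4 and 184.5 CPM against 182.6 and 177.4 CPM. Acp5 was called higher in Fgfr3CE-E12.5 cells (2.07). Ocstamp and Dcstamp were at 0 in every Dlx5CE-E12.5 library and at 2.46 to 4.02 CPM in Fgfr3CE-E12.5 cells. Atp6v0d2 was at 0, 0 and 0.251 CPM against 11.7 and 8.65 CPM, and Calcr was at 0.308 CPM or less throughout. Endothelial markers ranged from 23.1 to 53.1 CPM with overlapping groups. In bulk samples, fewer cells of a type and less RNA per cell cannot be told apart.

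**Figure D2:**
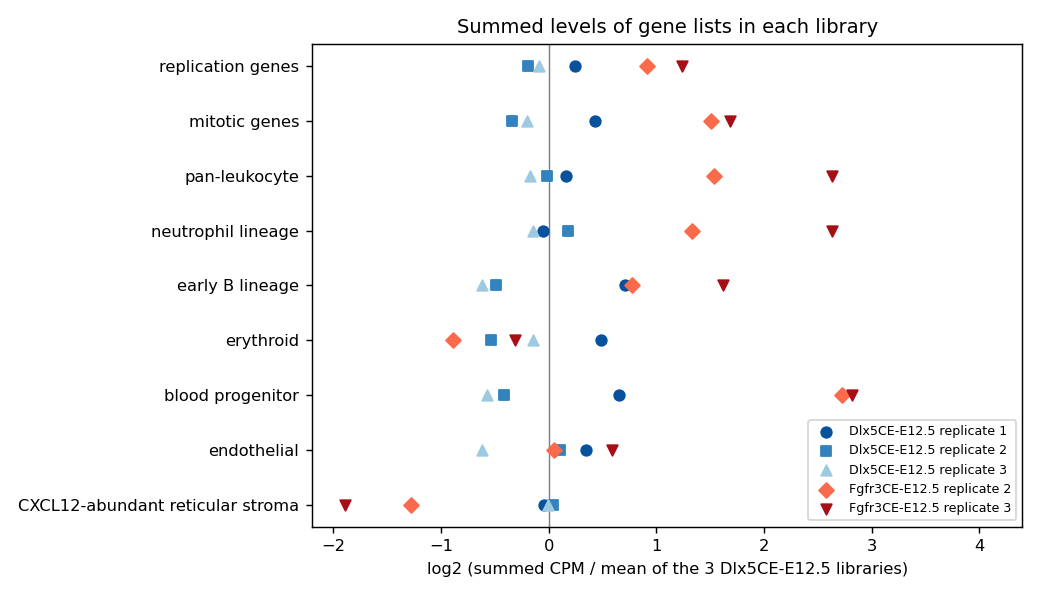
Summed normalized CPM of the replication genes and of 8 other lists in each library, as log2 over the mean of the 3 Dlx5CE-E12.5 libraries (horizontal axis). Replication, mitotic, leukocyte, neutrophil, early B lineage and blood progenitor sums lie above all Dlx5CE-E12.5 libraries in both Fgfr3CE-E12.5 libraries, and the stromal sum lies below them.

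Among the 14 tested licensing genes, 8 were called higher in Fgfr3CE-E12.5 cells (all genes 16.4%), and the median log2 fold change was 1.10. They were Cdc6, Cdt1, Gmnn and 5 of the 6 MCM subunits. Mcm5 (ENSMUSG00000005410, GRCm38 chromosome 8, 75109569 to 75128439), a subunit of the helicase ring, was at 44.8, 41.8 and 49.4 CPM in Dlx5CE-E12.5 cells and at 157.5 and 192.2 CPM in Fgfr3CE-E12.5 cells. Every Fgfr3CE-E12.5 library was over 3 times as high as every Dlx5CE-E12.5 library, and the log2 fold change was 1.95 (SE 0.15, adjusted p = 0.000126, edgeR). Mcm2 was at 85.1, 47.4 and 60.7 CPM against 158.3 and 203.9 CPM (log2 fold change 1.49, SE 0.25, adjusted p = 0.00298). Mcm6, the most abundant subunit per length in all 5 libraries, was at 127, 83 and 91.4 CPM against 249.5 and 281.6 CPM (1.40, SE 0.20, adjusted p = 0.00154). Groups did not overlap for any of these, and Dlx5CE-E12.5 replicate 1 was the highest of its group for Mcm2 and Mcm6. Mcm3 was at 71.6, 47.0 and 58.2 CPM against 126.2 and 184 CPM (1.40, SE 0.23, adjusted p = 0.00266).

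CDC6 and CDT1 load the helicase, and geminin, encoded by Gmnn, binds CDT1 to prevent licensing again in the same cycle. Cdc6 was at 31.6, 15.9 and 23.1 CPM in Dlx5CE-E12.5 cells and at 50.3 and 72.1 CPM in Fgfr3CE-E12.5 cells (1.38, SE 0.30, adjusted p = 0.00848). Gmnn was at 13.4, 8.47 and 10 CPM against 21.7 and 31.5 CPM (1.32, SE 0.27, adjusted p = 0.00698). The loader and its inhibitor were thus both higher, with no overlap between groups. Cdt1 had a log2 fold change of 1.04, close to the threshold, and 0.87 without Fgfr3CE-E12.5 replicate 3. Without that library, the log2 fold change of Cdc6 was 1.09 with an adjusted p of 0.0527 (edgeR), from a fit in which the lone Fgfr3CE-E12.5 library is assumed to vary like the Dlx5CE-E12.5 libraries.

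None of the 6 ORC subunits was called, at log2 fold changes between 0.11 and 0.84, a range that meets that of the MCM subunits at Mcm4 (0.73). The difference between the complexes was not tested. Orc4, the gene of the smallest change, was at 71.9, 54.5 and 51.2 CPM in Dlx5CE-E12.5 cells and at 74.9 and 53.2 CPM in Fgfr3CE-E12.5 cells, with overlapping groups (0.11, SE 0.22, adjusted p = 0.694). Orc5 (0.46, adjusted p = 0.0458) and Orc6 (0.74, adjusted p = 0.0101) passed the p-value threshold below the fold threshold. Orc1, the subunit whose level follows the cycle, failed the filter at 4.98, 5.45 and 6.24 CPM against 8.84 and 11.4 CPM. In the fit with a lower filter, its log2 fold change was 0.84 (SE 0.27, adjusted p = 0.04). Per kilobase of transcript, Orc1 was the lowest subunit in every library, at 1.65 to 3.78 CPM per kb, and the highest subunit was 8.1 to 13.6 times higher. The MCM subunits spanned only 2.06 to 3.3 times from lowest to highest within a library. Mcm5 was the lowest of the MCM subunits in the 3 Dlx5CE-E12.5 libraries, at 12.4 to 14.6 CPM per kb, whereas Mcm3 and Mcm4 were lowest in Fgfr3CE-E12.5 replicates 2 and 3.

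**Figure D3:**
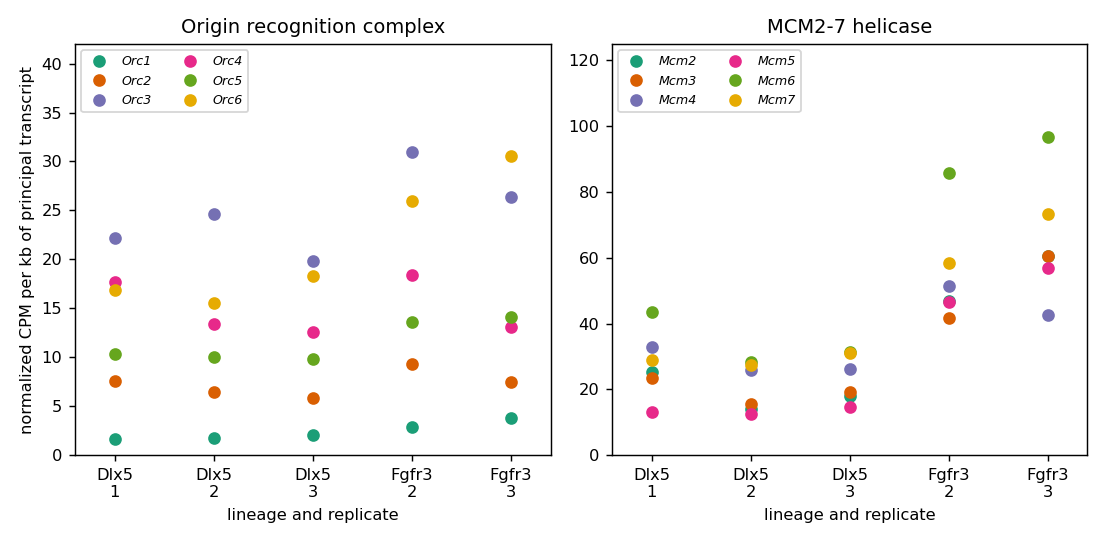
Normalized CPM per kb of the principal transcript (vertical axis, from 0) for the 6 ORC subunits and the 6 MCM subunits in each library (horizontal axis). Orc1 lies lowest of the ORC subunits in all 5 libraries, Orc2 and Orc4 overlap between the lineages, and the MCM subunits sit higher in the Fgfr3CE-E12.5 libraries, with Mcm6 on top in all 5.

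Mcm4 was the MCM subunit that was not called. Its levels were 118.4, 93 and 94 CPM against 185.1 and 153.2 CPM, without overlap, and its log2 fold change was 0.73 (SE 0.16, adjusted p = 0.00985). For Mcm7, 23.3% of the 50-base windows of its transcripts also occurred in other genes, chiefly its copy Gm5487. That copy was at 10.9, 14.9 and 16.0 CPM in Dlx5CE-E12.5 cells and at 0.205 and 0.266 CPM in Fgfr3CE-E12.5 cells. The fitted log2 fold change of Mcm7 alone was 1.17, and the log2 ratio of the mean levels was 1.17 for Mcm7 and 0.95 for both summed, under the threshold. Read length also differed between the lineages, and its part in the levels of gene and copy was not tested.

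Of the 7 tested firing genes, 4 were called higher in Fgfr3CE-E12.5 cells (all genes 16.4%). Both Fgfr3CE-E12.5 libraries were above all Dlx5CE-E12.5 libraries for all 7 (all genes 34.8%). Dbf4, Cdc45, Gins3, Cdc7 and Mcm10 met the filter on low counts only with the Fgfr3CE-E12.5 libraries. Dbf4 (ENSMUSG00000002297, chromosome 5, 8396973 to 8422716), the activator of CDC7, had the largest change of the 53 genes. It was at 1.37, 4.11 and 3.06 CPM in Dlx5CE-E12.5 cells, from 40, 83 and 73 counts, and at 33.0 and 33.0 CPM in Fgfr3CE-E12.5 cells. The log2 fold change was 3.55 (SE 0.41, adjusted p = 0.000649), and it ranged from 3.21 to 3.91 over the alternative fits. Its kinase partner Cdc7 was at 12.9, 6.10 and 9.38 CPM against 23.8 and 27.3 CPM (1.43, SE 0.31, adjusted p = 0.00901). Per length, the level of Cdc7 was 1.95 to 4.13 CPM per kb in Dlx5CE-E12.5 cells, above that of Dbf4 at 0.572 to 1.71 CPM per kb in each library. In Fgfr3CE-E12.5 cells the order was the other way, with Cdc7 at 7.62 and 8.71 CPM per kb and Dbf4 at 13.7 CPM per kb in both libraries. This reversal rests on the principal transcripts, 2.4 kb for Dbf4 and 3.13 kb for Cdc7. All annotated exons span 8728 bases in Dbf4 and 4183 in Cdc7, and by those lengths Cdc7 would be the higher in both lineages.

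CDC45 joins the MCM ring in the active helicase. Cdc45 was at 10.2, 7.24 and 7.83 CPM in Dlx5CE-E12.5 cells and at 27.2 and 39.0 CPM in Fgfr3CE-E12.5 cells (1.97, SE 0.25, adjusted p = 0.000911). Mcm10, which acts when the helicase starts to unwind, was at 13.3, 9.86 and 9.75 CPM against 19.3 and 29.5 CPM (1.15, SE 0.26, adjusted p = 0.0106), and its log2 fold change was 0.81 without Fgfr3CE-E12.5 replicate 3. The GINS genes, whose products complete the active helicase, were not called. Gins2, with the smallest change of this step, was at 28.0, 21.4 and 22.8 CPM against 28.6 and 35.4 CPM (0.41, SE 0.19, adjusted p = 0.123), and 67.3% of its exon bases overlap Gse1 on the opposite strand. Gins3 was at 0.89 and Gins4 at 0.50 on the log2 fold change scale, and Gins1, under the filter, at 0.88 (adjusted p = 0.0808).

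**Figure D4:**
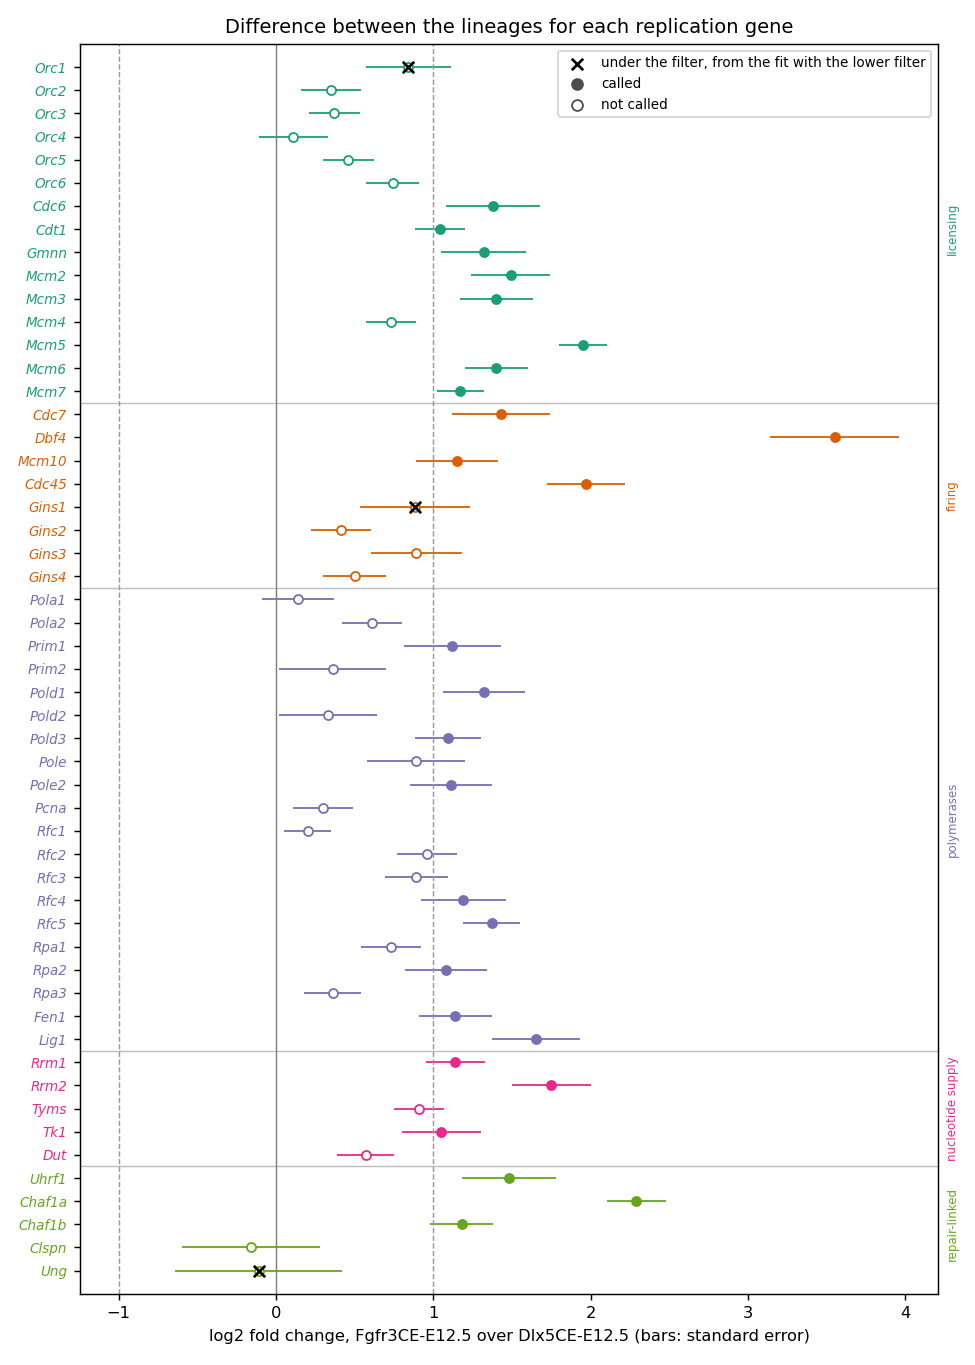
Log2 fold change of each gene, Fgfr3CE-E12.5 over Dlx5CE-E12.5 (horizontal axis), with its standard error as a bar, grouped by step. Filled points are the 27 genes called, open points are not called, crosses mark the 3 genes under the filter, and dashed lines mark the threshold of 1. Clspn and Ung are the genes left of 0.

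In the polymerase step, 9 of 20 genes were called higher (all genes 16.4%), with a median log2 fold change of 0.93 and 5 genes with overlapping groups. Lig1, the ligase that joins Okazaki fragments, was at 40.2, 22.7 and 26.3 CPM in Dlx5CE-E12.5 cells and at 75.9 and 111.8 CPM in Fgfr3CE-E12.5 cells (1.65, SE 0.28, adjusted p = 0.00295). Pold1, the catalytic subunit of polymerase delta, was at 32.3, 29.8 and 29.3 CPM against 52.9 and 99.8 CPM (1.32, SE 0.26, adjusted p = 0.00554). The Fgfr3CE-E12.5 libraries themselves were far apart for Pold1, and without replicate 3 its log2 fold change was 0.80. Fen1, the flap nuclease of Okazaki fragments, was at 70.7, 51.4 and 58.3 CPM against 102.4 and 162.9 CPM (1.14, SE 0.23, adjusted p = 0.00629). Fen1 shares 84.2% of its exon bases with genes on the opposite strand, chiefly Tmem258 and Gm10143, and Tmem258 had a log2 fold change of -0.05. Without replicate 3 the log2 fold change of Fen1 was 0.77.

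Of the clamp loader, Rfc4 and Rfc5 were called and Rfc1, Rfc2 and Rfc3 were not. Rfc5 was at 33.3, 25.9 and 25.5 CPM in Dlx5CE-E12.5 cells and at 65.0 and 80.7 CPM in Fgfr3CE-E12.5 cells (1.37, SE 0.18, adjusted p = 0.00118). Its exons overlap those of Wsb2 on the opposite strand over 10.7% of their bases, and Wsb2 had a log2 fold change of 2.24. Rfc4 was at 23.1, 17.1 and 14.4 CPM against 32.6 and 50.7 CPM (1.19, SE 0.27, adjusted p = 0.0102). It overlaps Eif4a2 on the opposite strand over 12.7%, and Eif4a2 fell by 2.02 on the log2 scale. The strand setting of the counting is not given in the sources used here, so reads from a gene and its partner on the opposite strand cannot be told apart. Rfc2 was just under the threshold, at 0.96 (adjusted p = 0.00555), and Rfc1, the large subunit, at 0.20 (adjusted p = 0.329).

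Within polymerase alpha-primase, which lays down the primers, Prim1 was called at 20.2, 9.86 and 12.7 CPM against 28.3 and 33.5 CPM (1.12, SE 0.31, adjusted p = 0.0213). Pola1, its catalytic DNA polymerase subunit and the gene of smallest change in the step, was at 22.4, 17.3 and 15.2 CPM against 22.2 and 18.0 CPM. These groups overlapped (0.14, SE 0.23, adjusted p = 0.661). The remaining calls were Pole2 (log2 fold change 1.11) of polymerase epsilon, Pold3 (1.09) of polymerase delta and Rpa2 (1.08) of the single-strand binding protein. All 3 lost the call without Fgfr3CE-E12.5 replicate 3. Pcna, the sliding clamp, was chosen for mention after its values were seen. It was at 108.6, 73.0 and 87.0 CPM against 105.1 and 115 CPM, with overlapping groups (0.30, SE 0.19, adjusted p = 0.225). Its copy Pcna-ps2, which shares 19.1% of the windows of Pcna, was at 14.3 to 19.0 CPM against 32.5 and 35.4 CPM, and the log2 ratio of mean levels for both summed was 0.45.

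All 5 nucleotide supply genes were higher in both Fgfr3CE-E12.5 libraries than in any Dlx5CE-E12.5 library (all genes 34.8%), and 3 were called (all genes 16.4%). Rrm2, the S-phase subunit of ribonucleotide reductase, was at 166.4, 100.8 and 120.5 CPM in Dlx5CE-E12.5 cells and at 356 and 512.8 CPM in Fgfr3CE-E12.5 cells (1.75, SE 0.25, adjusted p = 0.00157). Its partner Rrm1, the catalytic subunit, was at 110.4, 77.3 and 78.0 CPM against 179.5 and 210 CPM (1.14, SE 0.19, adjusted p = 0.00306). Tk1, the thymidine kinase of S phase, was at 35.4, 20.4 and 26.7 CPM against 49.0 and 65.0 CPM (1.05, SE 0.25, adjusted p = 0.0127), and its log2 fold change was 0.83 without Fgfr3CE-E12.5 replicate 3. Dut, which removes dUTP, had the smallest change, at 44.3, 33.0 and 37.6 CPM against 52.0 and 62.0 CPM (0.57, SE 0.18, adjusted p = 0.0324). Tyms, which makes thymidylate, stood at 0.91 (adjusted p = 0.00353), below the fold threshold.

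Among the chromatin, checkpoint and repair genes, 3 of 4 tested were called higher (all genes 16.4%). Chaf1a (ENSMUSG00000002835, chromosome 17, 56040439 to 56072289), the large subunit of the histone chaperone CAF-1, was at 10.8, 10.3 and 13.1 CPM in Dlx5CE-E12.5 cells and at 49.4 and 61.6 CPM in Fgfr3CE-E12.5 cells (2.29, SE 0.19, adjusted p = 0.000172). It shares 52.5% of its exon bases with Ubxn6 on the opposite strand, and Ubxn6 had a log2 fold change of -0.41 (adjusted p = 0.0589). Chaf1b, the middle subunit of CAF-1, was at 18.4, 14.7 and 14.8 CPM against 31.8 and 40.4 CPM (1.18, SE 0.20, adjusted p = 0.00292). Uhrf1, which guides maintenance methylation of new DNA, was at 51.7, 29.2 and 29.1 CPM against 83.2 and 122.2 CPM (1.48, SE 0.30, adjusted p = 0.00627). None of these groups overlapped. Clspn, which carries the fork checkpoint signal, was the only one of the 50 tested with a negative log2 fold change. It was at 15.4, 7.68 and 5.69 CPM against 7.49 and 9.76 CPM, with overlapping groups and the highest value in Dlx5CE-E12.5 replicate 1 (-0.16, SE 0.44, adjusted p = 0.787), and its sign turned with library size scaling and without that library, to 0.02 and 0.37. Ung, which removes uracil from DNA, failed the filter at 10.1, 4.31 and 4.90 CPM against 3.49 and 8.65 CPM (-0.11, adjusted p = 0.882, lower filter).

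The calls rested on both Fgfr3CE-E12.5 libraries to unequal degrees. Without an Fgfr3CE-E12.5 library the remaining one has no spread of its own and is assumed to vary like the Dlx5CE-E12.5 libraries. Over 16 alternative fits, 14 of the 27 genes were called in every fit and 13 lost the call in at least 1. All 13 lost it without Fgfr3CE-E12.5 replicate 3, through a log2 fold change at or under the threshold, an adjusted p above 0.05 or both. When the test asked for a change beyond 2-fold in place of a change from 0, 6 genes passed, Mcm5, Dbf4, Cdc45, Lig1, Rrm2 and Chaf1a. Of these, Dbf4, Cdc45 and Chaf1a met the filter on low counts only with the Fgfr3CE-E12.5 libraries.

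The 2 Fgfr3CE-E12.5 libraries were also set against each other, as single libraries with no test. Replicate 3 was higher than replicate 2 for 43 of the 50 genes, against 48.5% of all genes tested, and the median ratio was 1.24 against 0.989. The ratio passed 1.5-fold for 6 genes (background 8.58%), a share not far from that of all genes, and 0 genes passed it in the other direction (background 10.2%). The 6 were Pold1 and Pold2 at 1.89, Fen1 at 1.59, Rfc4 at 1.55, and Mcm10 and Pold3 at 1.53. Pold4, a further polymerase delta subunit outside the 53 genes, had a ratio of 1.47. The 7 genes not higher in replicate 3 were Orc4 at a ratio of 0.71, Orc2 at 0.801, Pola1 at 0.811, Mcm4 at 0.827, Orc3 at 0.851, Rfc1 at 0.916 and Dbf4 at 0.999. Of these only Dbf4 was called between the lineages, although the call and the ratio share replicate 3. The sum of the 53 genes was 1.25 times as high in replicate 3, beside 2.14 times for pan-leukocyte, 2.46 times for neutrophil, 1.07 times for blood progenitor and 1.13 times for mitotic genes. It was 1.79 times for early B lineage, 1.49 times for erythroid, 1.45 times for endothelial, 1.34 times for osteoblast and 1.0 times for osteoclast markers. For CAR stroma and chondrocyte markers the ratio was 0.654 and 0.132. The part of any of these cell types in the ratios was not tested.

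**Figure D5:**
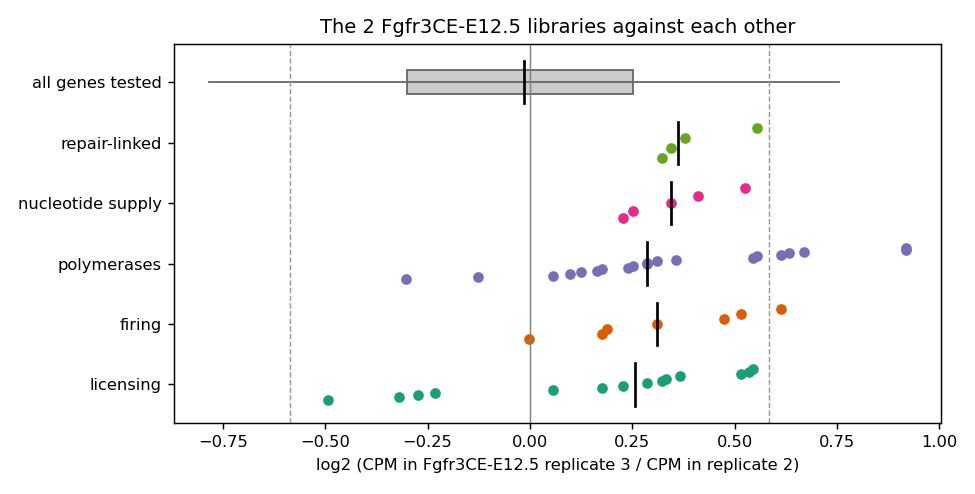
Log2 ratio of normalized CPM in Fgfr3CE-E12.5 replicate 3 over replicate 2 (horizontal axis) for the tested replication genes by step, with a point per gene and a black line at the median. The bar for all genes tested spans the middle quartiles, its thin line the 5th to 95th percentiles, and dashed lines mark 1.5-fold. Points lie right of 0 for 43 of 50 genes.

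Within Dlx5CE-E12.5 cells, replicate 1 was the highest library for 39 of the 50 genes, against 39.6% of all genes tested. Its sum over the 53 genes was 1.31 times the mean of the other two, beside 1.62 times for mitotic genes, 2.4 times for early B lineage, 1.76 times for erythroid and 2.22 times for blood progenitor markers. For pan-leukocyte and neutrophil markers the ratio was 1.19 and 0.95. It was 1.48 for endothelial, 1.36 for osteoblast, 1.05 for chondrocyte, 1.03 for osteoclast and 0.959 for CAR stroma markers.

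Of 50 other replication genes from a list written alongside, 44 were tested, with a median log2 fold change of 0.82. In Fgfr3CE-E12.5 cells, 19 were called higher (all genes 16.4%) and 1 lower (all genes 13.1%). The largest was E2f1, an E2F activator of replication genes, at 3.50, 2.58 and 3.64 CPM against 23.4 and 40.6 CPM (3.30, SE 0.31, adjusted p = 0.000278). Ccna2, the S-phase cyclin A2, rose by 2.05 and E2f7, a repressor of the E2F family, by 1.88 on the log2 scale. The call in the other direction was Samhd1, the dNTP hydrolase, at 608.9, 564.3 and 542.1 CPM against 247.9 and 187.9 CPM (-1.39, SE 0.18, adjusted p = 0.000943). Of 22 mitotic genes, 18 were called higher and 0 lower, beside the same shares of all genes. Their median was 1.89, led by Bub1 (2.48), Bub1b (2.40) and Ndc80 (2.18). Bub1, Ndc80 and Ttk met the filter on low counts in no Dlx5CE-E12.5 library, and Nuf2 also needed the Fgfr3CE-E12.5 libraries to meet it. Mki67, named after its values were seen because it is widely used to mark cycling cells, was at 107.9, 57.4 and 66.4 CPM against 101.2 and 94.2 CPM, with overlapping groups (0.34, SE 0.27, adjusted p = 0.329).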

How the data were processed

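Reads of 5 bulk libraries (SMART-Seq cDNA, Nextera XT) were processed by the authors, and the deposited values used here are unnormalized counts per gene on mm10. TopHat2 2.0.13, Bowtie2 2.2.1 and HTSeq are named in the submitters' processing notes, and the strand setting of the counting is not given in the sources used here. Libraries were grouped by the genotype in the labels. Gene models came from GENCODE M21 on GRCm38, where 29965 feature identifiers were found and 76 were not.

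The main test was edgeR 4.0.16's quasi-likelihood test (R 4.3.3, TMM, lineage as the only term). Of 17092 protein-coding genes and reporters, the 10088 that reached a CPM of 10 in 2 or more libraries entered it. Genes under this filter were taken from a fit of those reaching a CPM of 1 in 2 or more. The standard error was the log2 fold change over the square root of its F statistic. Levels per kb used the principal transcript. The fit was tested on simulated data. Intervals of counting error do not cover amplification, since no molecular identifiers were used, and 3 counts were taken as the floor.

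Members and lists were chosen with earlier results of these data known. Every member may be named. Values per library are given for called members, up to 6 per step by absolute log2 fold change, and for the member of smallest change in each step. Of the other lists, up to 3 genes per direction are named by this rule. Values per library of Mcm4, Orc1, Ung, Pcna, Mki67 and the genes of the closing observations were chosen after they were seen. Promoters were shown for 2 of the 4 called members of largest change with an E2F match. Alternatives were DESeq2's size factors, library size alone, edgeR's exact test, DESeq2 1.42.0, lower or no filters, all features, other thresholds, GC and length trends removed (values for 100% of tested genes), the replicate number as a block, and each library left out.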

Additional observations from a re-analysis of the deposited data

How the results depend on the processing

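Counts of called replication genes and their median log2 fold change kept their direction in all alternatives run, and 0 genes were called higher in Dlx5CE-E12.5 cells in each. Asking for a change above 2-fold left 6 replication genes and 8 other replication genes called, from 27 and 19. When a library was left out, the count ranged from 14, without Fgfr3CE-E12.5 replicate 3, to 29, and the median from 0.82 to 1.23. A threshold of 2-fold between the Fgfr3CE-E12.5 libraries left 0 genes, from 6. Library size alone as the scaling gave 32 calls, moved the median of all genes tested to 0.19 and the share of all calls that were higher in Fgfr3CE-E12.5 cells from 55.6% to 64.9%. Signs turned for 4 genes that were not called. When a library was left out, Clspn ranged from -0.42 to 0.37 (0.02 without Fgfr3CE-E12.5 replicate 2), Orc4 from -0.16 to 0.34, Pola1 from -0.02 to 0.31 and Pold2 from -0.20 to 0.72. Orc4 was at -0.02 with the length trend removed, and Clspn at 0.02 with library size alone. The cause was not tested. Same-numbered libraries of the lineages shared only a number, with deviations correlated at 0.12 and -0.05. With the replicate block 28 replication genes were called at a median of 1.14, and 30 at 1.16 when the GC trend was also removed, and Clspn was at 0.37 and 0.44. Beside the values with a turned sign, 749 values for single genes over these settings kept their side of the thresholds, 28 lost it and 17 gained it. Depth was not varied.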

Other observations

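Enzymes that set the pool of DNA precursors beyond the 5 supply genes were looked at after their values were seen, from the list of other replication genes, and no test over the group was made. Dck, which salvages deoxycytidine, was at 51.0, 36.8 and 37.9 CPM in Dlx5CE-E12.5 cells and at 102.2 and 131.7 CPM in Fgfr3CE-E12.5 cells (log2 fold change 1.48, adjusted p = 0.00114, edgeR). It was higher in both Fgfr3CE-E12.5 libraries than in any Dlx5CE-E12.5 library. Genes of new pyrimidine synthesis were not called, with Cad at 0.32, Umps at 0.79 and Ctps at 0.24 on the log2 fold change scale. Rrm2b, the ribonucleotide reductase subunit of cells outside S phase, was lower in both Fgfr3CE-E12.5 libraries than in any Dlx5CE-E12.5 library, at 21.6, 23.1 and 18.1 CPM against 13.2 and 15.5 CPM, and did not pass the test (-0.54, adjusted p = 0.0655).

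Genes that restore chromatin behind the fork were named in the same way. Dnmt1, the maintenance DNA methyltransferase that works with UHRF1, was at 58.2, 41.0 and 38.0 CPM against 86.1 and 111.5 CPM (1.11, adjusted p = 0.00605). Asf1b, a histone chaperone of dividing cells, was at 40.5, 20.1 and 27.5 CPM against 70.5 and 118.7 CPM (1.69, adjusted p = 0.00557). Its paralog Asf1a was at 0.85 (adjusted p = 0.0127) and the histone chaperone Nasp at -0.16 (adjusted p = 0.43), neither of them called.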
